A study of Arabidopsis thaliana with 4 samples.

Results

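The 10 plates TA21 to TA30 form a stretch of high H4K20me1 log ratios on an array of genomic tiles, and 886 of the 21743 tiles with values (4.07%) belong to it. Its members are all tiles named TA, a plate number from 21 to 30 and a well, with a value in both replicates. The stretch was picked because limma, a moderated test of the mean of both replicates, called the medians of all 10 consecutive plates higher than the array median, so its level is described here and was not tested. The data came from seedlings of Arabidopsis thaliana ecotype Col-0, labelled as 10 days old and without treatment, which grew in liquid culture at 22 °C with 16 h of light a day. Each 2-colour array compared chromatin DNA precipitated with an H4K20me1 antibody (IP) with chromatin DNA that had not been precipitated (INPUT). All arrays belong to 1 group, with replicates I and II on 2 arrays each, between which the dyes were exchanged. Both arrays of a dye swap carried the same value for each tile, so each replicate gave 1 value per tile and n = 2 throughout.

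H4K20me1 is a single methyl group on a lysine of the histone H4 tail, and H4 is one of the core histones around which DNA is wound. In animals this methyl group is added by the enzyme PR-Set7, and the mark is known for its part in chromosome condensation and the cell cycle. In Arabidopsis, immunostaining has placed H4K20me1 mainly in chromocentres, the compact heterochromatin of the nucleus that holds many silent repeats. Whole seedlings mix many cell types, so a ratio between IP and INPUT averages over all of their nuclei.

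The values are log ratios of a base that is not stated, and the median of all tiles was taken off each replicate, so that 0 is the array-wide level. The channel in the numerator is not stated either. The ratio is likely IP over INPUT, because values outside the stretch went up to 4.42 (replicate I) and 3.87 (replicate II) and down only to -1.94 and -1.804. With the sign turned, every "higher" below becomes "lower". Tiles carry plate and well names, their genome positions and sequences were not used here, and "next" refers to the order of names.

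The tiles of TA21 to TA30 had median log ratios of 0.485 (replicate I) and 0.318 (replicate II), against -0.0213 and -0.0131 in all other tiles. The shift touched most of the distribution. The 10th percentile was -0.208 and -0.383 in the stretch, against -0.714 and -0.667 in all other tiles, and the 90th percentile was 1.17 and 0.933, against 0.852 and 0.711. The highest values of the array lay elsewhere: the highest tile of the stretch reached 2.03 and 2.08, against 4.42 and 3.87 elsewhere. Low, middle and high quantiles of the stretch were thus all raised in both replicates, while its single highest tile was lower than the highest elsewhere.

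**Figure D1:**
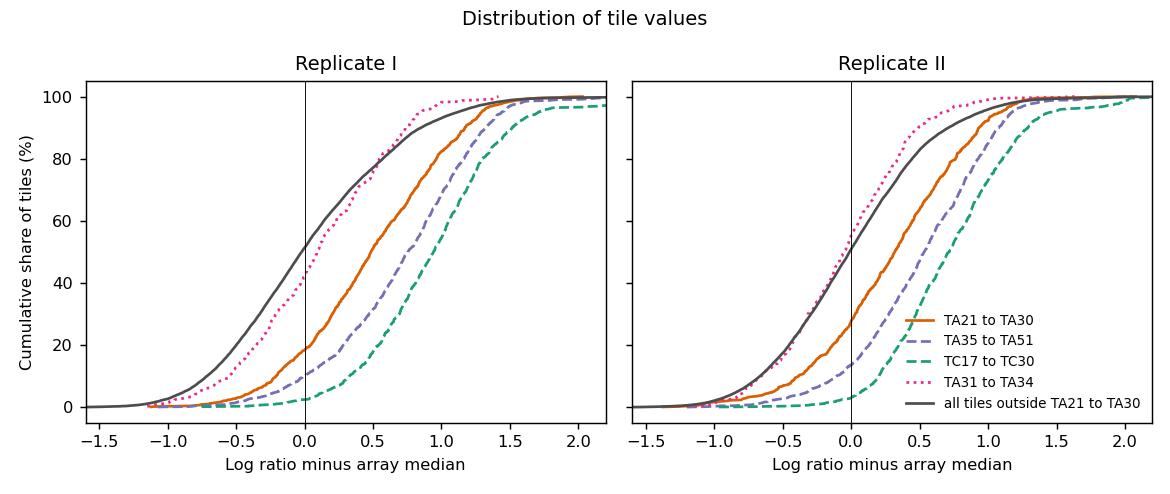
Cumulative share of tiles (y axis, %) by log ratio minus the array median (x axis) in each replicate. The curve of TA21 to TA30 lies right of that of all other tiles, with medians of 0.485 and 0.318, and left of those of TA35 to TA51 and TC17 to TC30, while the curve of TA31 to TA34 lies near the other tiles in replicate II.

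Above 0 in both replicates lay 572 of the 886 tiles (64.6%), where 33.6% of all tiles did so, and under 0 in both lay 94 (10.6%), where again 33.6% of all tiles did. The remaining tiles had replicates on opposite sides of 0. Values over 1 in both replicates were held by 47 tiles (5.30%), beside 2.83% of all tiles. Limma with Benjamini-Hochberg adjustment over all 21743 tiles called 191 tiles of the stretch higher (21.6%), beside 8.24% of all tiles, and 8 lower (0.903%), beside 3.88% of all tiles. These counts come from the contrast that picked the stretch, so nothing is read from them beyond their size. With the replicates scaled to equal median absolute deviations, or with plate means removed, limma called 0 tiles of the stretch in either direction (326 higher and 21 lower, and 118 higher and 108 lower, at an unadjusted p under 0.05). The counts of called tiles below are those without these steps. Shares of all tiles called after these steps are not given, so the 0 and the unadjusted counts say nothing particular to the stretch.

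The stretch had the lowest medians of the 3 high stretches of the array. TA35 to TA51, which follows after 4 plates, had medians of 0.755 and 0.532, and TC17 to TC30 had 0.942 and 0.713. The share of tiles above 0 in both replicates was 64.6% in TA21 to TA30, against 81.9% for TA35 to TA51 and 95% for TC17 to TC30. All 3 were picked on these values, and the differences between them were not tested.

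Levels inside the stretch were far from even. Plate TA22 was the highest, with medians of 0.847 (replicate I) and 0.760 (replicate II), and it ranked first of the 10 plates in both. TA23 followed with 0.647 and 0.612. TA24 had 0.474 and 0.501. These 3 plates lay together near the left end, and the 2 replicates gave them nearly the same levels.

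In TA25 and TA29, and less so in TA26, TA28 and TA30, replicate I was the higher. TA25 had a median of 0.657 in replicate I, but in replicate II of 0.191, which put it second of the 10 plates in one and eighth in the other. TA26 had 0.523 and 0.354. TA29 had 0.603 and 0.279. The gap of 0.466 in TA25 was the largest excess of replicate I over replicate II among all 231 plates, and that of 0.325 in TA29 was the third largest, where the median plate had 0.00988.

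The lower plates were TA27, where the replicates were again close, with 0.215 and 0.177, and TA28, with 0.363 and 0.165. TA21, the first plate, had 0.373 in both replicates. TA30, the last, had 0.401 and 0.228. In the order of mean plate medians, only the steps from TA22 to TA23, from TA23 to TA24 and from TA30 to TA28 had the same sign in both replicates among the 9 steps between neighbours. The order of the other neighbours therefore does not hold beyond the spread of the replicates. Over the 10 plates the medians of the replicates correlated at r = 0.680 (Spearman 0.588). This is a description over plates that share arrays.

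**Figure D2:**
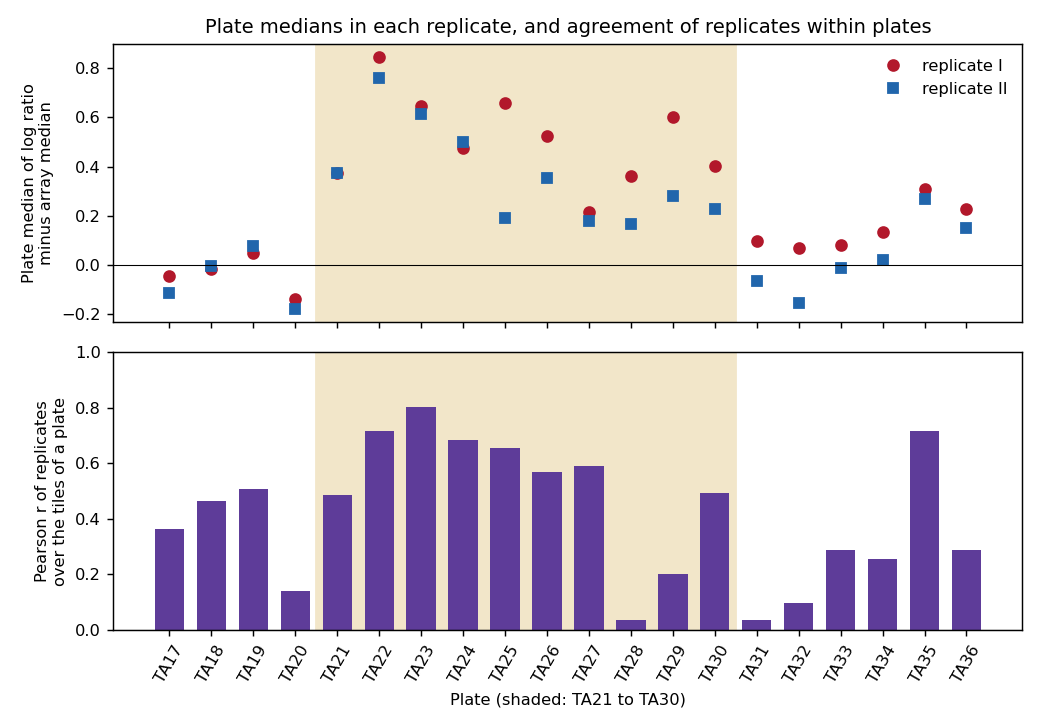
Upper panel: plate median of the log ratio minus the array median (y axis) for plates TA17 to TA36 (x axis), 1 point per replicate. Lower panel: Pearson r between replicates over the tiles of each plate. The replicates nearly coincide in TA21 to TA24 and part in TA25 and TA29, and r falls to 0.0357 in TA28, against 0.804 in TA23.

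Tile by tile, agreement of the replicates differed widely between plates. Within TA23 the 2 replicates correlated at r = 0.804 over 94 tiles, and within TA22 at 0.715 over 60. Within TA28 r was 0.0357 over 96 tiles, and within TA29 it was 0.201 over 77. The other plates lay between 0.486 in TA21 and 0.684 in TA24, with TA27 at 0.589 and TA30 at 0.493, so the low values belong to TA28 and TA29 and not to the right end as a whole. The median over all 231 plates was 0.329. Plate TA28 was thus raised as a whole in both replicates, while which of its tiles were high differed between them.

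Split at TA26, a boundary chosen after the values were seen, the first 6 plates (524 tiles) had r = 0.658 and the last 4 (362 tiles) had r = 0.374. The first 6 plates had medians of 0.566 and 0.437, and the last 4 had 0.408 and 0.210. Of the 191 tiles called higher by limma, 155 lay in the first 6 plates (29.6% of their tiles) and 36 in the last 4 (9.94%). The share in the last 4 plates was near the 8.24% of all tiles called higher, which includes the 3 high stretches. Outside those stretches 2.08% of tiles were called higher. Tiles above 1 in both replicates numbered 44 in the first 6 plates (8.40%) and 3 in the last 4 (0.829%), beside 2.83% of all tiles and 0.434% outside the 3 high stretches. Without TA28 the difference in r was 0.189, and with all plates it was 0.283.

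Single rows of wells show where the signal sat. A plate has 8 rows of 12 wells, and 76 rows of the stretch had at least 8 tiles. Both row medians exceeded 0.5 in 19 of them (25%), against 157 of 1736 rows elsewhere (9.04%), and both were under 0 in 5 (6.58%), against 758 elsewhere (43.7%). Some high rows were consecutive: 5 blocks of at least 2 consecutive rows above 0.5 in both replicates held 205 tiles (23.1% of the stretch). They held 117 of its 191 called tiles (61.3%) and 40 of its 47 tiles above 1 in both. All 5 blocks lay between TA21E and TA26C. Blocks also took rows with fewer than 8 tiles: TA22C to TA23A includes TA22F with 1 tile and TA22H with 3, and spans TA22G, which has no tiles. The blocks and their cut were chosen after the values were seen. Their rows were taken for high medians in these same values, so their large share of called tiles follows from that choice. Blocks were not counted outside the stretch.

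The block TA22C to TA23A had medians of 1.004 (replicate I) and 0.923 (replicate II) over 52 tiles. None of its tiles lay under 0 in both replicates. In row TA22E, all 12 wells were called higher by limma, with medians of 1.21 and 1.06. This block is interrupted by 32 consecutive wells, TA22F02 to TA22H09, that the table does not list. The 12 tiles before that gap had medians of 1.09 and 1.06, and the 12 after it had 0.890 and 0.802, so the level was high on both sides.

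The block TA23F to TA24C had medians of 0.997 and 0.878 over 71 tiles, and its row TA23G reached 1.28 and 1.006. It held the 2 highest tiles of the whole stretch, which are next to each other. TA23G03 stood at 2.03 in replicate I and 2.08 in replicate II, and TA23G04 at 1.502 and 1.75. The well before them, TA23G02, had 1.43 and 1.01, and the well after, TA23G05, had 0.734 and 0.386. This local summit appeared in both replicates, and 4 tiles of the stretch had a mean of at least 1.5.

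The other 3 blocks were shorter. TA21E and TA21F had medians of 0.829 and 0.630 over 23 tiles. TA24H to TA25B had 0.777 and 0.709 over 36 tiles. TA26B and TA26C had 0.751 and 0.593 over 23 tiles. Between the blocks the level varied: rows TA21G to TA22B stayed at means of 0.275 to 0.412, near the median of the stretch, while TA23D had -0.0448 and TA25C lay under 0.

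**Figure D3:**
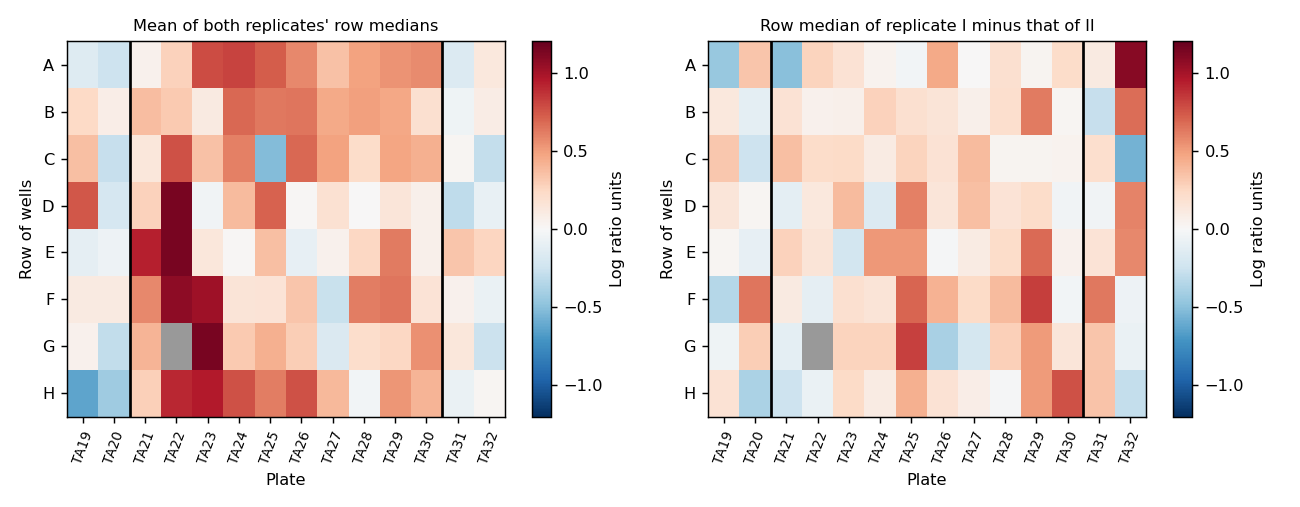
Rows of wells (y axis) in plates TA19 to TA32 (x axis), with TA21 to TA30 between the black lines. Left, the mean of both replicates' row medians, where the darkest rows lie in TA22D to TA23H; right, the row median of replicate I minus that of replicate II, where the rows TA25D to TA25G and TA29E to TA29H stand out. A row without tiles is grey, and TA22F and TA22H hold 1 and 3 tiles.

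The low places inside the stretch were narrow. Row TA25C had medians of -0.388 and -0.653, directly after a high block, and 9 of its 12 tiles lay under 0 in both replicates. Rows TA27F and TA27G together had -0.162 and -0.339 over 23 tiles. TA27F05 to TA27F12 was the longest run of tiles under 0 in both replicates, with 8 wells and means of -0.410 and -0.669. Rows TA26E and TA28H had medians closer to 0, at -0.101 and -0.0901 and at -0.0378 and -0.0257.

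Of the 2 lowest tiles of the stretch, TA27F06 lay in one of these low rows. TA26D05 lay in row TA26D, which had medians of 0.0913 and -0.0556. TA26D05 stood at -1.10 in replicate I and -1.06 in replicate II, where the well before it had 0.0794 and -0.00231 and the well after it, TA26D06, had -0.689 and -1.08. TA27F06 stood at -0.965 and -1.08, with TA27F07 after it at -1.12 and -0.907. Only TA26D05 was under -1 in both replicates, 1 of 886 tiles (0.113%), beside 0.419% of all tiles.

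A running median over 25 tiles put these blocks and dips in one profile. It was above 0 in both replicates at 87.5% of the positions in the stretch and above 0.5 in both at 21.7%. The mean of the 2 running medians had 9 crests that rose at least 0.4 above the dips beside them, 6 in TA21 to TA26 and 3 in TA27 to TA30, between 59 and 142 tiles apart. The highest crest, at TA22E04, had 1.198 in replicate I and 1.12 in replicate II. The next, at TA23G09, had 1.22 and 1.006, and a dip to 0.0753 and -0.0433 at TA23D11 lay between them.

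The later crests were lower. At TA25A10 the running medians were 0.871 and 0.785, at TA26B10 0.852 and 0.601, and at TA28A05 0.615 and 0.420. At TA29F01 replicate I reached 0.970 and replicate II 0.279, so that crest came mostly from one replicate. Of the 8 dips, 2 were under 0 in both replicates, TA25C08 at -0.238 and -0.289 and TA27F11 at -0.162 and -0.288. The number of crests was 8 in replicate II alone and 10 in replicate I alone, and 5 with a window of 49 tiles.

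**Figure D4:**
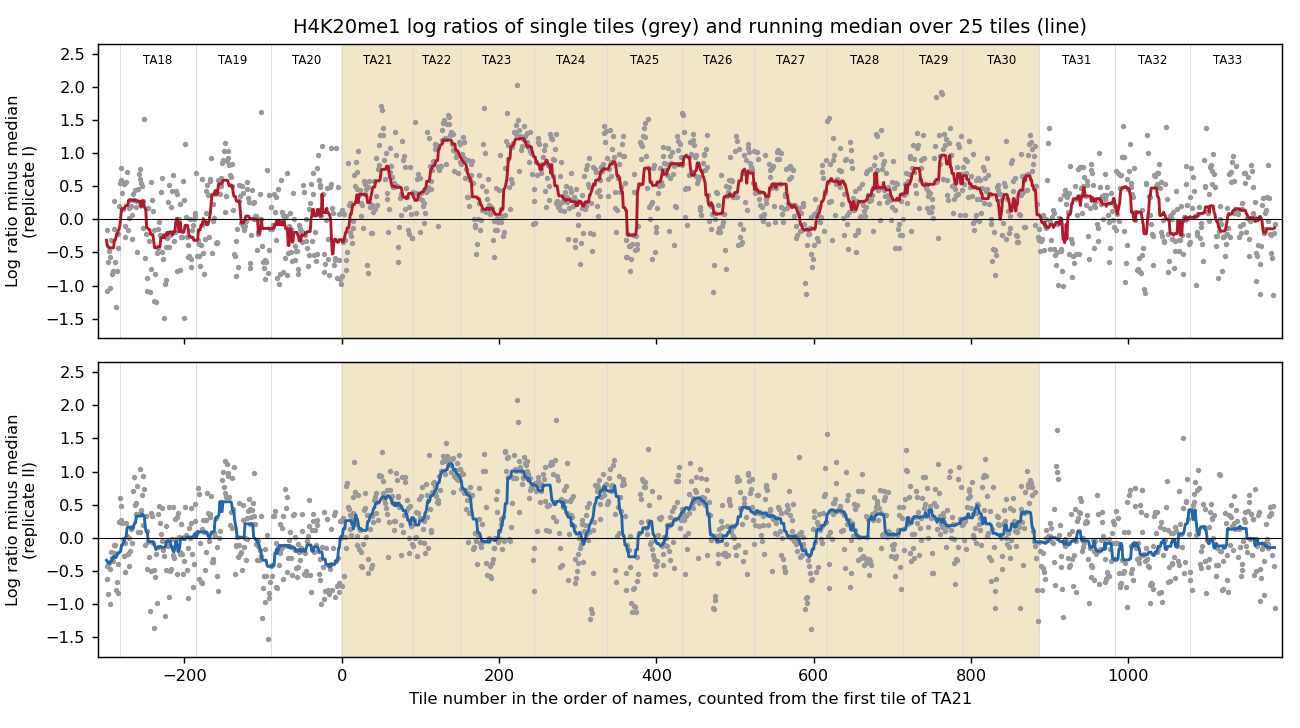
Log ratio minus the array median (y axis) along the tiles in the order of names (x axis, counted from the first tile of TA21), with replicate I above replicate II and TA21 to TA30 shaded. Grey points are tiles and the line is the running median over 25 tiles; crests near TA22E04 and TA23G09 exceed 1 in both replicates, and the line crosses 0 close to both borders.

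Called tiles stood mostly side by side. Of the 191 tiles called higher, 153 (80.1%) were in 32 runs of at least 2 consecutive tiles, and 11 runs had at least 5. The longest ran from TA22D02 to TA23A06 with 33 tiles and means of 1.12 and 1.02, but it spans the 32 wells that are not listed. Broken there, it gives a run of 24 tiles from TA22D02 to TA22F01, with means of 1.16 and 1.06, and one of 9 tiles. The longest run of tiles above 0 in both replicates, from TA22D02 to TA23A10, had 37 tiles across the same gap. Runs were not counted in other tiles, so the share in runs is not shown to be particular to the stretch.

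Next wells resembled each other inside the stretch, with r = 0.645 in replicate I and 0.639 in replicate II over 845 pairs, against 0.425 and 0.398 in tiles outside the 3 high stretches. TA35 to TA51 had 0.656 and 0.623, and TC17 to TC30 had 0.738 and 0.710. The likeness of next wells was thus near that in TA35 to TA51 and smaller than in TC17 to TC30. Across replicates, a well and its neighbour in the other replicate had r = 0.469 in the stretch, against 0.544 in TA35 to TA51, 0.646 in TC17 to TC30 and 0.179 outside. The likeness was gone over 2 rows: at 24 wells apart r was -0.00919 and 0.0286 in TA21 to TA30. At that distance TA35 to TA51 had 0.178 and 0.0747, and TC17 to TC30 had 0.244 and 0.267. These correlations are over tiles that share an array and carry no test.

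The left border, between TA20 and TA21, was the larger step by plate. TA21 had medians of 0.373 and 0.373, against -0.139 and -0.180 in TA20, a difference of 0.532 ± 0.0295 (SD, n = 2). Over 24 tiles on either side, the inner tiles had medians of 0.107 and 0.241, against -0.556 and -0.379 in the outer ones. The step did not fall at the same wells in both replicates. Row TA21A had -0.197 in replicate I and 0.301 in replicate II, and row TA21B had 0.458 and 0.280. The row medians had no single crossing of 0 in either replicate. Outside the border, row TA20F had 0.434 in replicate I, and inside it, row TA21C had -0.0429 in replicate II.

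At single wells the border was not visible. TA21A01 and TA21A02 had 0.138 and -0.343 in replicate I and -0.732 and 0.301 in replicate II. Outside them, TA20H11 and TA20H12 had -0.979 and -0.853 in replicate I and -0.00362 and 0.256 in replicate II. The plates beyond were not uniformly low: row TA19D had medians of 0.818 and 0.669, close to the shorter blocks inside the stretch and under the 2 longest. In TA19, 9 of 95 tiles (9.47%) were called higher by limma, beside 8.24% of all tiles and 2.08% of tiles outside the 3 high stretches. TA18 had 3 of 96 tiles called higher and TA20 had 0 of 91.

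The right border, between TA30 and TA31, was a smaller step by plate, but over 48 wells on either side the steps were alike, at 0.405 on the right and 0.408 on the left. TA30 had medians of 0.401 and 0.228, against 0.0989 and -0.0643 in TA31, a difference of 0.297 ± 0.00738 (SD, n = 2). Over 24 tiles on either side, the inner tiles had 0.661 and 0.410, against -0.111 and -0.0506 in the outer ones. Row TA30G was high in both replicates, at 0.625 and 0.479, but the last row, TA30H, had 0.785 in replicate I and 0.0244 in replicate II.

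The last wells before the border were already low in both replicates. TA30H11 and TA30H12 had -0.274 and -0.149 in replicate I and -1.26 and -0.0708 in replicate II. TA31A01 and TA31A02 had -0.306 and -0.485 in replicate I and -0.0655 and -0.202 in replicate II. No plate from TA31 to TA34 had both medians as high as TA27, the lowest plate inside, at 0.215 and 0.177: the highest of them was TA34, at 0.133 and 0.0191. In limma on plate medians all 10 plates of the stretch were called higher and TA20 and TA31 were not, beside 22.9% of 231 plates called higher over the array. That call is the one that picked the stretch.

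The difference between the replicates did not stop at the right border. Replicate I exceeded replicate II by over 0.5 in 11 of the 76 rows of the stretch (14.5%), against 55 of 1736 rows elsewhere (3.17%). They were 4 consecutive rows in TA25 (TA25D to TA25G, medians 0.749 and 0.0495 over 47 tiles), 4 in TA29 (TA29E to TA29H, 0.786 and 0.210 over 36 tiles), and the single rows TA24E, TA29B and TA30H. In TA31 to TA34 it was so in 6 of 32 rows (18.8%), and row TA32A had the largest excess of all rows, 0.668 in replicate I and -0.423 in replicate II. It was so in 2 of 125 rows of TA35 to TA51 and in 1 of 94 rows of TC17 to TC30. In the stretch the difference was shared by next wells (r = 0.406) and hardly by wells 3 apart (r = 0.0592). With 2 replicates, and arrays of a dye swap that hold the same values, the source of the difference was not tested.

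The stretch lacked more wells than most plates. Of its 960 wells, 74 are not listed in the table, 36 of them in TA22 and 19 in TA29, and 2 of its 10 plates had all 96 wells, where 206 of all 231 plates did. Of the 10 plates on the array with fewer than 80 tiles, 8 lay in the 3 high stretches, which hold 40 plates. The number of listed wells was not used to pick the stretch, and its relation to the log ratio was not tested.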

How the data were processed

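The deposited table holds 1 number for each spot and array. It is taken here as a score, a log ratio whose base the authors' table does not state. No source used here names the scanner, the normalization or the genome build. Per the labels' protocols, amplified DNA was labelled directly with Cy3 and Cy5. Dye-swap columns were identical, so 1 column per replicate was used, and dye effects could not be assessed. The median over 21743 tiles was subtracted from each replicate.

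Tiles and plate medians were tested against 0 with limma 3.58.1 in R 4.3.3 (intercept, eBayes, 1 residual and 21.7 prior degrees of freedom for tiles, two-sided), with Benjamini-Hochberg adjustment over all tiles or plates and a threshold of 0.05. The fit was also run on simulated tiles that were independent and had a common spread. In the real data next wells were alike, so the simulation does not bear on the calls. With 2 replicates, an exact sign-flip test cannot give a p under 0.5. Nothing in the labels says whether the replicates came from separate cultures, so p-values measure a spread that may be technical. The number of arrays limits the precision. Named were all 10 plates and their neighbours, the 2 highest and 2 lowest tiles, the ends of the longest runs and the wells at the borders; other rows and wells were chosen after their values were seen. Members and lists were chosen with earlier results of these data known. Runs bridge wells that are not listed. Other steps used SciPy 1.17.1, numpy 2.4.6 and pandas 2.3.3 in Python 3.11.15, with figures from matplotlib 3.10.9. Alternatives were other centrings, scaling, prior, thresholds, widths and single replicates.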

Additional observations from a re-analysis of the deposited data

How the results depend on the processing

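Of 72 alternatives for 16 results, 43 kept a count within 1.5 times or a value within the spread of its replicates (for correlations of replicates, within a 95% interval), 29 moved further and 0 reversed. With 2 replicates, a value from a single replicate lies within that spread by construction. Centring on the mode cannot move a difference between tiles, and a count cannot reverse. The 43 and the 0 were thus partly fixed in advance. The 95% interval was computed over tiles as if they were independent, although next wells were alike. It does not measure a spread between replicates. The difference of the stretch from all other tiles, 0.418 ± 0.124 (SD, n = 2), ran from 0.331 to 0.506 in single replicates and was 0.402 without TA22. Tiles called higher (191) became 76 at an adjusted p of 0.01, 117 without TA22 and TA23, 1 with no centring, and 0 in limma with plate means removed or with equal median absolute deviations (118 and 326 at an unadjusted p under 0.05). Tiles called lower (8) became 2 at 0.01, 17 with trend and robust prior, 627 with no centring, and 0 in limma in those 2 settings (108 and 21 unadjusted). These counts cover the stretch only, and shares over all tiles are not given for the alternatives. Tiles above 1 in both replicates (47) became 0 with no centring, and those under 0 in both (94) became 844; single replicates gave 69 to 157 and 162 to 246, since 1 replicate then has to pass. Runs (32) became 13 at 0.01 and 76 for tiles above 0 in both. With 48 wells or 2 plates on either side the left border was 0.408 or 0.579 and the right 0.405 or 0.384. TA22 minus TA27 (0.608) was 0.572 with means. The correlation between next wells (0.642) was 0.629 by Spearman and 0.611 with plate medians removed. High blocks (5) became 3 with a cut of 0.6, and rows with replicate I in excess (11) became 7 with equal deviations. Lower counts follow from a stricter threshold by construction, and values without centring are nearly all negative. The cause was not tested for other values that moved. Alternatives for blocks, crests, running medians, replicate agreement by portion and rows with an excess, and those that leave out plates, were chosen after seeing the data. No paired analysis was possible because the study has 1 group. Log ratios do not show how far signal exceeded background.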

Other observations

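Columns and grids of wells differed little in level, and row letters differed more. Over the 12 columns of wells, medians in TA21 to TA30 ran from 0.372 to 0.555 in replicate I and from 0.208 to 0.385 in replicate II. Over the 4 interleaved grids of odd or even rows and columns they ran from 0.463 to 0.496 and from 0.282 to 0.360. Over the 8 row letters they ran from 0.267 (row D) to 0.728 (row H) in replicate I and from 0.130 (row D) to 0.462 (row H) in replicate II. In all other tiles the row letters ran from -0.0502 to 0.00227 and from -0.0367 to 0.0103. With 10 plates, a letter stands for at most 118 tiles in 10 places of the stretch.

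In deposited values, before centring, 23 tiles of the stretch (2.60%) were above 0 in replicate I and 30 (3.39%) in replicate II.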
